A study of Mus musculus with 38 samples.

Results

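The MHC class II genes and the invariant chain were followed through sorted cells of the mouse bone-lining niche, in healthy and in myeloma-bearing mice. The set was defined by 7 gene symbols: Cd74, H2-Aa, H2-Ab1, H2-Eb1, H2-DMa, H2-DMb1 and Ciita. Of these 7, 6 had a row among the 13260 genes of the RPKM table, in which reads are scaled to transcript length and library depth, and Ciita, the transactivator of the family, was not analysed here. Each of the 6 was described in all 38 libraries.

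MHC class II molecules present peptides from the endocytic pathway to CD4+ T cells. An alpha and a beta chain (H2-Aa with H2-Ab1 in the I-A molecule; H2-Eb1 is the beta chain of I-E) assemble in the endoplasmic reticulum around the invariant chain, Cd74, which blocks the groove and routes the complex to endosomes. There cathepsins trim Cd74, and the non-classical heterodimer H2-DM, built from H2-DMa and H2-DMb1, exchanges the remaining fragment for peptide. Dendritic cells, B cells and macrophages express the set constitutively, interferon gamma can induce it in endothelial and stromal cells through Ciita, and plasma cells typically silence it.

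All mice were C57Bl/KaLwRij, aged 8 to 10 weeks when they were injected intravenously with PBS vehicle (healthy) or with 1000000 cells of the murine myeloma line 5TGM1-GFP, and were culled on day 23. The CD45-/Ter119- fraction of collagenase-digested long bones gave CD31+ endothelial cells (EC) and, among CD31- cells, Sca1+ALCAM- stromal progenitors (SP) and ALCAM+Sca1- osteoprogenitors (OP), sorted from both kinds of mice, with 5 healthy and 5 myeloma libraries each for EC and SP and 4 of each for OP. GFP+ myeloma cells (MM) were sorted from the bone lining and from the central marrow of myeloma-bearing mice, with 5 libraries each. All MM libraries therefore hold 1 injected line. Each library was made from 100 cells with the SmartSeq2 protocol. Replicates are named by the letter of their library code. The labels state that replicates of a cell type came from different mice but do not tie a letter to a mouse.

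The libraries held 9735031 to 34883291 reads on genes. Where a class II gene had exactly 3 reads, its level was between 0.0867 RPKM (H2-Eb1 in MM central G) and 0.177 RPKM (H2-Eb1 in OP myeloma D). Markers matched the sort labels: 7 of 7 endothelial genes exceeded 1 RPKM in all 10 EC libraries and at most 2 did elsewhere, 9 of 9 osteoprogenitor genes did in all 8 OP libraries, and 8 of 8 measured plasma and myeloma cell genes did in all 10 MM libraries. The stromal progenitor list was less specific, since its summed level was 1105 RPKM or more in SP but also 2724 RPKM or more in EC, which express Ly6a (Sca1). The libraries SP healthy L and SP myeloma E carried the neutrophil gene S100a8 at 4728 and 5174 RPKM. In bulk libraries such as these, fewer cells of a type and less RNA per cell cannot be told apart.

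On GRCm38, 5 of the 6 genes lay within the MHC of chromosome 17, in the order H2-DMa (34119541 to 34139101), H2-DMb1 (34153072 to 34160230), H2-Ab1 (34257689 to 34269419), H2-Aa (34282744 to 34287823, minus strand) and H2-Eb1 (34305867 to 34316674). Exons of H2-DMa overlapped those of Brd2 on the opposite strand, and 8.43% of the 50-base windows in its transcripts, the read length used, also occurred in Brd2. Of the windows in H2-DMb1, 22.7% also occurred in its neighbour H2-DMb2, which was not analysed here. Reads of these windows cannot be assigned to either gene by sequence. The paper counted reads with the default settings of featureCounts, and the effect of such reads on the H2-DMb1 values was not tested. For Cd74, H2-Ab1 and H2-Eb1 no window was shared with another gene.

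Promoters of this family are usually recognised by an X box, bound by the Rfx complex, with a cyclic AMP response element or its variant, and a Y box, bound by NF-Y, which together recruit Ciita, and these letters were found in 3 of the 4 genes with a window. RefSeq promoter windows of GRCm38.p6, from 250 bases before to 50 after the start, were available for 4 of the genes. The stretches below are printed because they hold these letters, in H2-Eb1 and H2-Aa with the spacing between them, 5′ to 3′ on the gene's strand, with capitals marking the 7 last letters of the X box core, ACNGATG, the Y box TGATTGG and the cyclic AMP response element TGACGTCA.
H2-Eb1, plus strand, chr17:34305757-34305856: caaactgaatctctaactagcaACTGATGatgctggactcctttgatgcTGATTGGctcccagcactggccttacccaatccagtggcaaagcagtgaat
H2-Aa, minus strand, chr17:34287834-34287933: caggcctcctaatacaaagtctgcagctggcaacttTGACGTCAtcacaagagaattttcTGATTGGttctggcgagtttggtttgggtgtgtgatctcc
H2-DMb1, plus strand, chr17:34153090-34153119: ttacctagtaACTGATGatgctaggctgat

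These X box letters began 88 bases before the start of H2-Eb1 and 91 before that of H2-DMb1, and the Y box began 27 and 28 bases further on. For H2-DMb1, positions are counted from the RefSeq start, which lies 119 bases after the start of the GENCODE gene, and its Y box lies outside the stretch printed. In H2-Aa the response element began 74 bases before the start and the Y box 24 bases further on, and the X box letters occurred on the opposite strand, 232 bases before the start. On either strand, the X box letters were found in 9.85% of 32851 promoter windows, the response element in 1.79% and the Y box in 7.82%. Neither window of H2-DMa held any of these letters, and such a match or its absence is a description of the window only.

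The 6 genes were not expressed as a unit. Of 38 libraries, 3 had all 6 above 1 RPKM (EC healthy O and MM lining E and G), and 4 had none (SP healthy L, SP myeloma E and I, and OP myeloma D). H2-Aa and H2-Ab1, the partners of 1 molecule, were together above 1 RPKM in 6 libraries, H2-Ab1 was so without H2-Aa in 13, and H2-Aa without H2-Ab1 in 1. H2-DMa and H2-DMb1 were together above 1 RPKM in 12 libraries, and H2-DMb1 without H2-DMa in 11. The patterns by cell type were Cd74 in MM and in most EC, the I-A chains in EC, and H2-DMb1 above 1 RPKM in 7 of 8 OP and in 9 of 10 MM libraries.

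**Figure D1:**
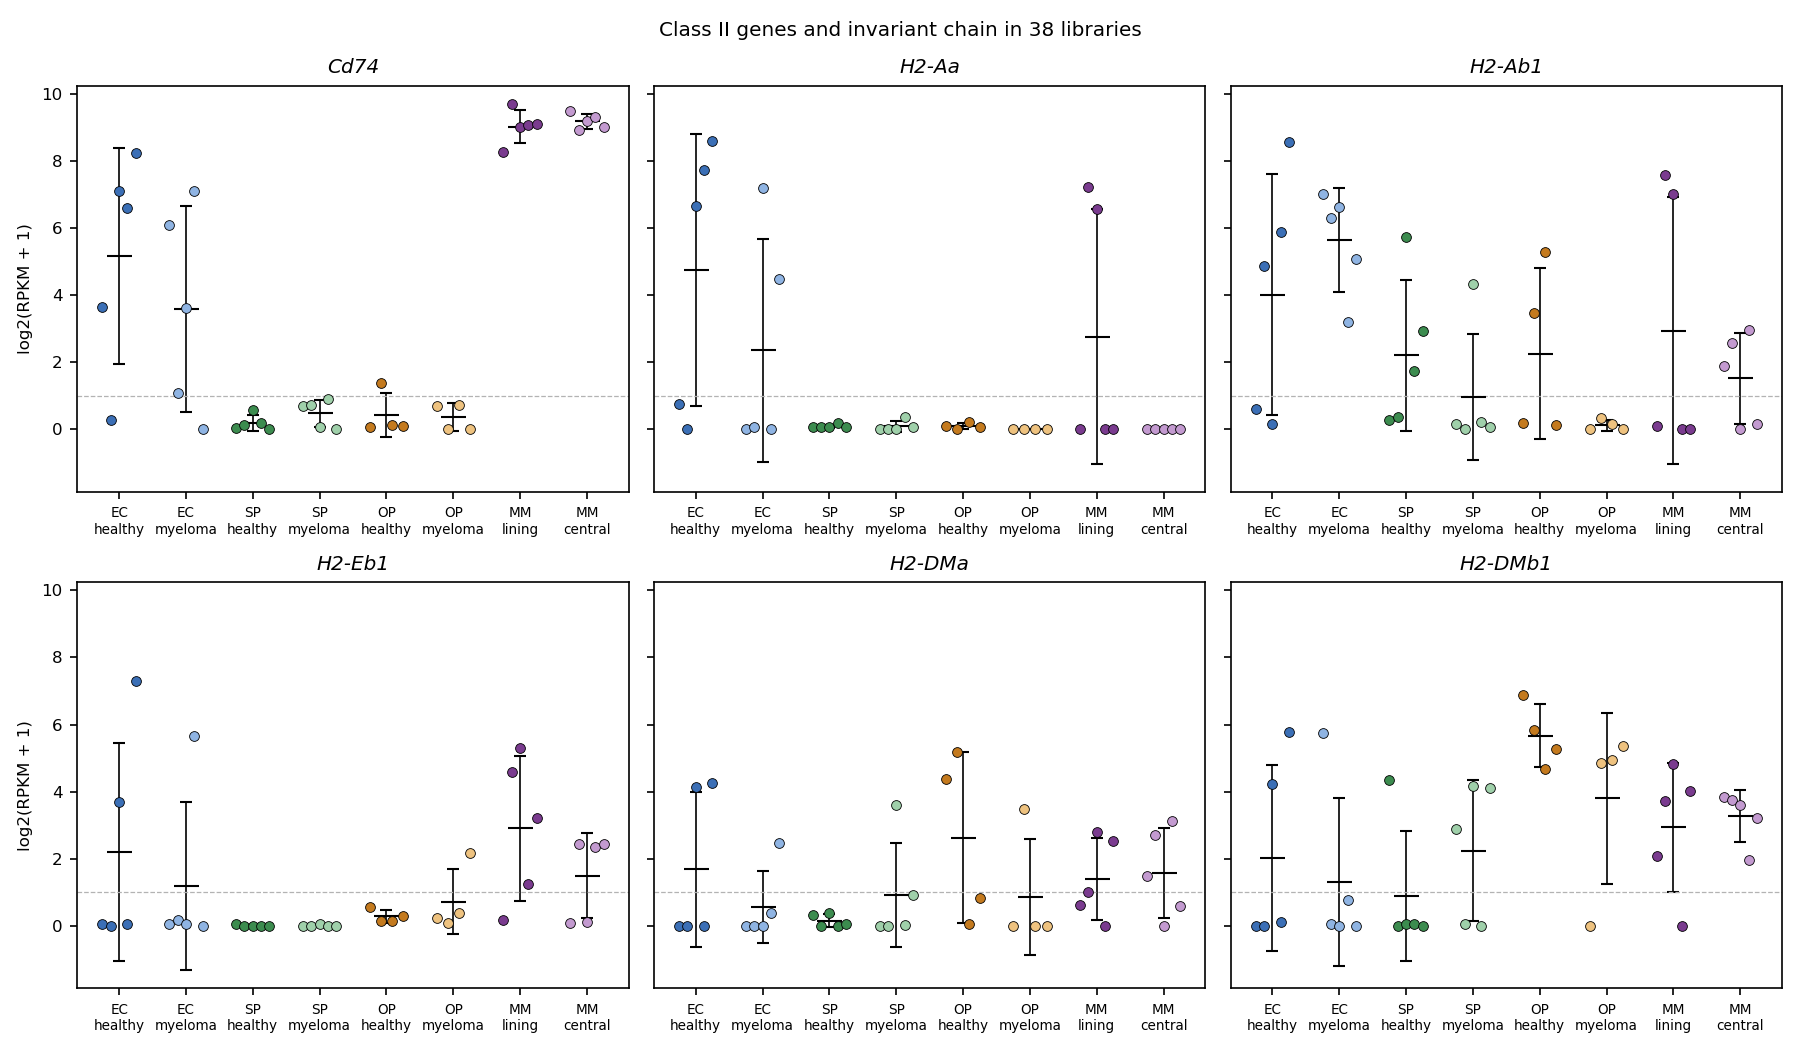
Level of each of the 6 genes as log2(RPKM + 1) on the vertical axis in the 8 groups of libraries on the horizontal axis. Each point is 1 library, the bars give mean and SD of these log2 values, and the dashed line marks 1 RPKM. Cd74 lies between 307 and 822 RPKM in all 10 myeloma cell libraries, while H2-Aa spans from 0 to 382 RPKM among endothelial libraries.

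**Figure D2:**
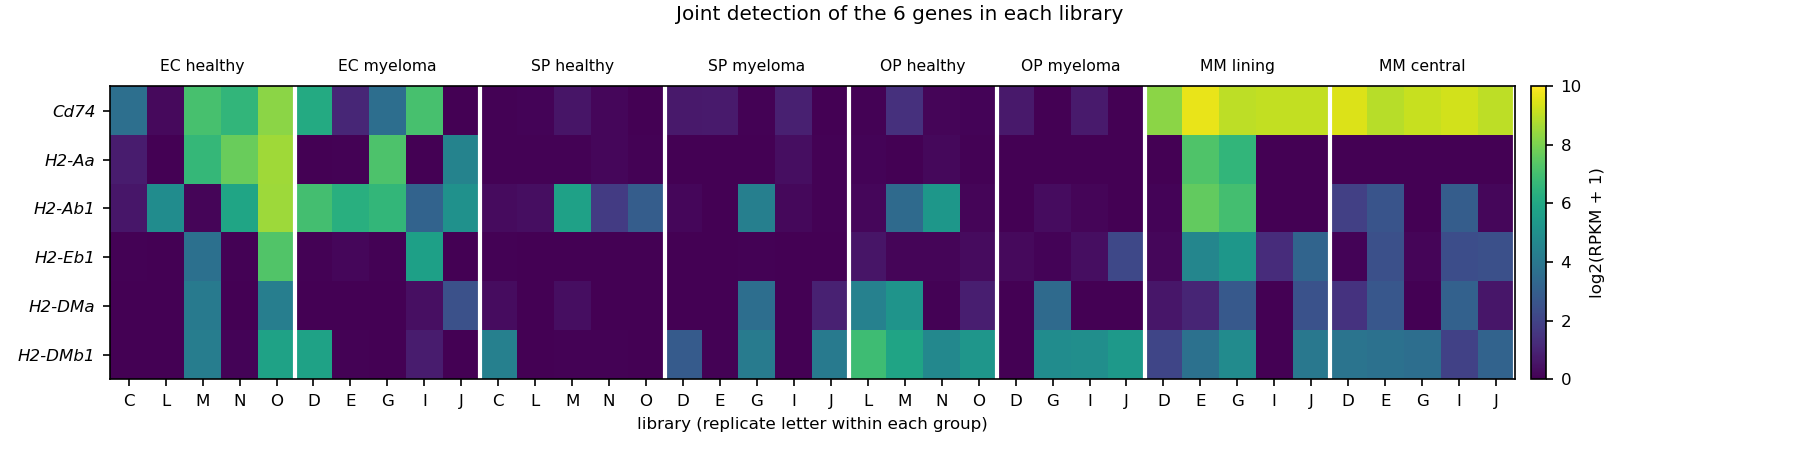
Level as log2(RPKM + 1), by colour, of the 6 genes (rows) in each of the 38 libraries (columns, ordered by group and letter). The 6 genes are all above 1 RPKM in 3 libraries only, EC healthy O and MM lining E and G.

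Cd74, the only one of the 6 measured genes outside the MHC (chromosome 18, 60803848 to 60812652 on GRCm38), was expressed in every MM library. Its level was 307, 822, 514, 542 and 543 RPKM in MM lining libraries D, E, G, I and J, and 711, 480, 578, 636 and 519 RPKM in the central libraries of the same letters. These ranges overlapped, with means of 546 ± 183 and 585 ± 92.1 RPKM (SD, n = 5 each). The difference, lining minus central, was -0.15 on the log2(RPKM + 1) scale (SE 0.23, limma adjusted p = 0.984), and it became 0.11 without the lining and central libraries lettered D.

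In EC the same gene ranged from 0 to 10434 reads. Healthy EC libraries C, L, M, N and O had 11.6, 0.201, 137, 95.2 and 304 RPKM of Cd74, a mean of 110 ± 123 (SD, n = 5). Myeloma EC libraries D, E, G, I and J had 67.5, 1.10, 11.3, 136 and 0 RPKM, a mean of 43.1 ± 58.8 (SD, n = 5). The groups overlapped throughout, and each contained a library at or near 0.

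Stromal cells had almost none. Cd74 was at most 0.850 RPKM in the 10 SP libraries, and OP healthy M, at 1.62 RPKM (29 reads), was the highest of the 18 SP and OP libraries. By mean RPKM the order of the groups was MM central, MM lining, healthy EC, myeloma EC, healthy OP, myeloma SP, myeloma OP and healthy SP. Between neighbours in this order, only MM lining and healthy EC had ranges that did not overlap, and all others differed by less than the larger SD.

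The invariant chain was compared between cell types with limma on log2(RPKM + 1), where a gene was called at a Benjamini-Hochberg adjusted p below 0.1 with a difference above 1 on the log2 scale. Among healthy libraries, Cd74 was higher in EC than in SP by 4.99 (SE 1.30, adjusted p = 0.0184) and higher in EC than in OP by 4.75 (SE 1.45, adjusted p = 0.0496). In myeloma-bearing mice it was higher in MM lining than in EC by 5.45 (SE 1.15, adjusted p = 0.00280), than in SP by 8.55 (SE 0.45, adjusted p = 9.96e-09) and than in OP by 8.67 (SE 0.42, adjusted p = 2.92e-08). Values in SP and OP near 0 make the size of these last differences depend on the added 1 RPKM. The healthy EC calls rested on 4 of 5 EC libraries above 1 RPKM, so that leaving out the EC and SP libraries lettered C, M, N or O took Cd74 below the filter for the comparison with SP. Against OP, 8 of 12 alternatives that tested Cd74 kept the call. In SP and in myeloma OP no library was above 1 RPKM, so Cd74 entered the comparisons with them through EC or MM lining alone. Without the filter it was still called against SP in healthy EC (limma adjusted p = 0.0631) and in MM lining against SP (4.51e-08) and OP (1.61e-07), but not in healthy EC against OP (0.115).

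Of the classical chains, H2-Aa, the I-A alpha chain, had the narrowest cell range. It was 0.702, 0, 100, 211 and 382 RPKM in healthy EC C, L, M, N and O, and 0, 0.0520, 147, 0 and 21.3 RPKM in myeloma EC D, E, G, I and J. High levels thus occurred in healthy and myeloma EC alike, beside libraries at 0 in each, and the groups overlapped. In the 18 SP and OP libraries it never passed 0.300 RPKM (8 reads).

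In MM, H2-Aa was 0 in 8 of 10 libraries, with Cd74 at 307 RPKM or more in every one of them. Only lining libraries E and G had it, at 150 and 94.6 RPKM. Those libraries were also the only MM libraries in which H2-Ab1 passed 10 RPKM.

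H2-Ab1, the I-A beta chain, was spread more widely. Healthy EC had 0.532, 28.4, 0.107, 57.9 and 375 RPKM (C, L, M, N, O), and myeloma EC had 128, 77.7, 97.5, 8.11 and 32.8 RPKM (D, E, G, I, J). All 5 myeloma EC libraries were above 8 RPKM and 2 of 5 healthy ones were below 1 RPKM, but the healthy range enclosed the myeloma range. Means were 92.3 ± 160 and 68.8 ± 48.4 RPKM (SD, n = 5 each).

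Outside EC, H2-Ab1 was uneven between replicates. SP healthy M, N and O had 51.7, 2.30 and 6.68 RPKM with C and L at 0.213 and 0.295, and among SP myeloma libraries G had 19.1 RPKM and the others at most 0.168. OP healthy M and N had 9.95 and 37.7 RPKM, L and O had 0.131 and 0.0912, and the 4 OP myeloma libraries had at most 0.273. In 6 of 18 SP and OP libraries H2-Ab1 was above 1 RPKM with H2-Aa below it. MM lining libraries D, E, G, I and J had 0.0683, 191, 129, 0 and 0 RPKM, and central libraries 2.70, 4.99, 0, 6.70 and 0.118 RPKM.

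H2-Eb1, the I-E beta chain, passed 10 RPKM in 5 libraries of 38. In EC these were healthy M and O, at 11.8 and 155 RPKM, and myeloma I, at 49.9 RPKM, while the other 7 EC libraries had at most 0.133. The SP libraries had no more than 1 read each, and OP myeloma J, at 3.52 RPKM, was the only OP library above 1. MM lining libraries D, E, G, I and J had 0.122, 23.0, 38.3, 1.39 and 8.25 RPKM, a mean of 14.2 ± 16.3 (SD, n = 5), and central libraries had 0.0560, 4.39, 0.0867, 4.13 and 4.44 RPKM, a mean of 2.62 ± 2.33 (SD, n = 5). The lining and central ranges overlapped.

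The DM chains followed another order of cell types. H2-DMb1, the DM beta chain, was 117, 56.4, 24.7 and 37.7 RPKM in healthy OP L, M, N and O, a mean of 59.0 ± 41.0 (SD, n = 4), and 0, 28.1, 29.9 and 40.3 RPKM in myeloma OP D, G, I and J, a mean of 24.6 ± 17.2 (SD, n = 4). It was above 1 RPKM in 7 of 8 OP libraries, in 6 of which Cd74 was below 1 RPKM and in 5 of which neither I-A chain reached it. Healthy and myeloma OP overlapped, and the myeloma library at 0 was the only OP library without reads.

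In the other cell types H2-DMb1 was lower or intermittent. Healthy SP had 19.2 RPKM in C and at most 0.0362 in the others, and myeloma SP had 6.38, 0.0300, 17.05, 0 and 16.3 RPKM (D, E, G, I, J). EC had 17.8 and 53.7 RPKM in healthy M and O and 53.3 RPKM in myeloma D, with at most 0.696 in the other 7 libraries. MM lining libraries had 3.27, 12.1, 27.3, 0 and 15.2 RPKM and central libraries 13.4, 12.3, 11.2, 2.86 and 8.19 RPKM.

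H2-DMa, the DM alpha chain, was at 0 in 15 of 38 libraries. The highest values were in healthy OP, with 19.9, 35.6, 0.0372 and 0.787 RPKM in L, M, N and O (mean 14.1 ± 17.05, SD, n = 4), whereas of the myeloma OP libraries only G, at 10.1 RPKM, had any. EC healthy M and O had 16.6 and 18.3 RPKM, EC myeloma J had 4.53, SP myeloma G had 11.2, and the remaining EC and SP libraries were below 1 RPKM. MM libraries ranged from 0 to 5.99 RPKM in the lining and from 0 to 7.67 RPKM in the central marrow. For H2-Ab1, H2-DMa and H2-DMb1, neighbouring groups in order of mean RPKM overlapped at every step. The exceptions for H2-Aa (healthy SP and myeloma OP) and for H2-Eb1 (healthy OP and myeloma SP) lay between groups with means under 1 RPKM.

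The study compared niche cells of myeloma-bearing and healthy mice over the transcriptome, with voom-limma at the thresholds used here. It reported differentially expressed genes in EC, SP and OP, and interferon response gene sets raised in each. The main fit used here called far fewer genes, so its results for the members do not bear on the study's counts. The comparison is given here for these genes. No member was called in EC (0 of 3 tested, with 0% of 7880 genes called), in SP (0 of 2, with 0% of 8747) or in OP (0 of 1, with 0.0115% of 8664). With limma none of these had an unadjusted p under 0.05 (a count of 0 of 6), and voom-limma on the recovered reads called 0 as well. In EC, myeloma minus healthy, the differences were -1.60 for Cd74 (SE 1.52, adjusted p = 0.973), -2.40 for H2-Aa (SE 1.78, adjusted p = 0.951) and 1.62 for H2-Ab1 (SE 1.36, adjusted p = 0.956). In SP they were -1.25 for H2-Ab1 (SE 1.12, adjusted p = 0.981) and 1.35 for H2-DMb1 (SE 1.10, adjusted p = 0.976), and in OP -1.88 for H2-DMb1 (SE 1.02, adjusted p = 0.981). Standard errors above 1 on the log2 scale leave changes of several fold in either direction undetectable with these libraries.

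The change from healthy to myeloma was also compared between cell types. None of the members was called in EC against SP (0 of 5, with 0% of 10596 genes called), in EC against OP (0 of 6, with 0% of 10756) or in SP against OP (0 of 3, with 0% of 10735), and limma gave none an unadjusted p under 0.05. The smallest of these p belonged to H2-DMb1, whose change was higher in SP than in OP by 3.23 (SE 1.70, unadjusted p = 0.0704 with limma, adjusted p = 1.00), and to H2-Ab1, whose change was higher in EC than in OP by 3.76 (SE 2.03, unadjusted p = 0.0783, adjusted p = 0.998).

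No difference by location was detectable in MM. In lining against central marrow 0 of 5 tested members were called, where 0.203% of 8857 genes were (0.147% higher and 0.0565% lower), and limma gave none an unadjusted p under 0.05. The largest differences were 1.43 for H2-Ab1 (SE 1.36, adjusted p = 0.961) and 1.42 for H2-Eb1 (SE 0.86, adjusted p = 0.910). The highest values of both genes were in lining libraries E and G, and voom-limma gave 0 calls.

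Between cell types, in contrast, members were called. In healthy EC against SP 1 of 2 tested members, Cd74, was called, where 17.3% of 8457 genes were, and in healthy EC against OP 2 of 4 were, where 16.5% of 8258 genes were. The other member of the latter was H2-DMb1, lower in EC than in OP by 3.65 (the difference was -3.65, SE 1.31, adjusted p = 0.0963), a call that 5 of 13 alternatives kept and that was lost without the filter (limma adjusted p = 0.171). Against healthy SP, H2-DMb1 was higher in OP by 4.78 (SE 1.03, adjusted p = 0.0216). This was 1 of 2 members called, where 3.58% of 8707 genes were (1.69% higher and 1.9% lower), and 10 of 14 alternatives kept the call. It was lost when the OP and SP libraries lettered L, M, N or O were left out together (limma adjusted p = 0.156, 0.111, 0.108 and 0.114), with differences of 4.16 to 4.90.

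H2-Ab1 was not called in any of these comparisons. It differed by 1.81 between healthy EC and SP (SE 1.58, adjusted p = 0.545), by 1.76 between EC and OP (SE 1.75, adjusted p = 0.617) and by 0.05 between OP and SP (SE 1.34, adjusted p = 0.994). H2-Aa and H2-Eb1 did not pass the filter of 1 RPKM in 4 of the compared libraries and were not tested there. In the fit without that filter, H2-Aa differed by 4.66 between healthy EC and SP and was not called (limma adjusted p = 0.172). Fitting all 38 libraries together called it (adjusted p = 0.0163), but no SP library was above 1 RPKM and the gene entered through EC and MM alone.

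MM lining was set against the niche cells of myeloma-bearing mice. Against EC 1 of 6 tested members was called, where 41.5% of 9207 genes were, against SP 2 of 4 (42.4% of 9460 genes) and against OP 1 of 4 (42.9% of 9316 genes). The median difference was 1.22 over the 6 members tested against EC, beside 0.49 over all genes tested, a shift that reached 1.10 under voom-limma. The call beside Cd74 was H2-Eb1 against SP. It passed the filter only through the 4 lining libraries above 1 RPKM, so these counts are no support for the set, and without the filter its difference of 2.89 had a limma adjusted p of 0.0418. Its difference from OP was 2.18 (SE 0.99, adjusted p = 0.106).

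Neither I-A chain was called against EC. H2-Ab1 differed by -2.70, MM lining minus EC (SE 1.57, adjusted p = 0.208), and H2-Aa by 0.41 (SE 1.85, adjusted p = 0.889). The H2-Ab1 difference was called with the replicate block (limma adjusted p = 0.0924) and on the recovered reads, where it was -5.70 (voom-limma adjusted p = 0.0543, or 0.0386 with all libraries in 1 fit).

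**Figure D3:**
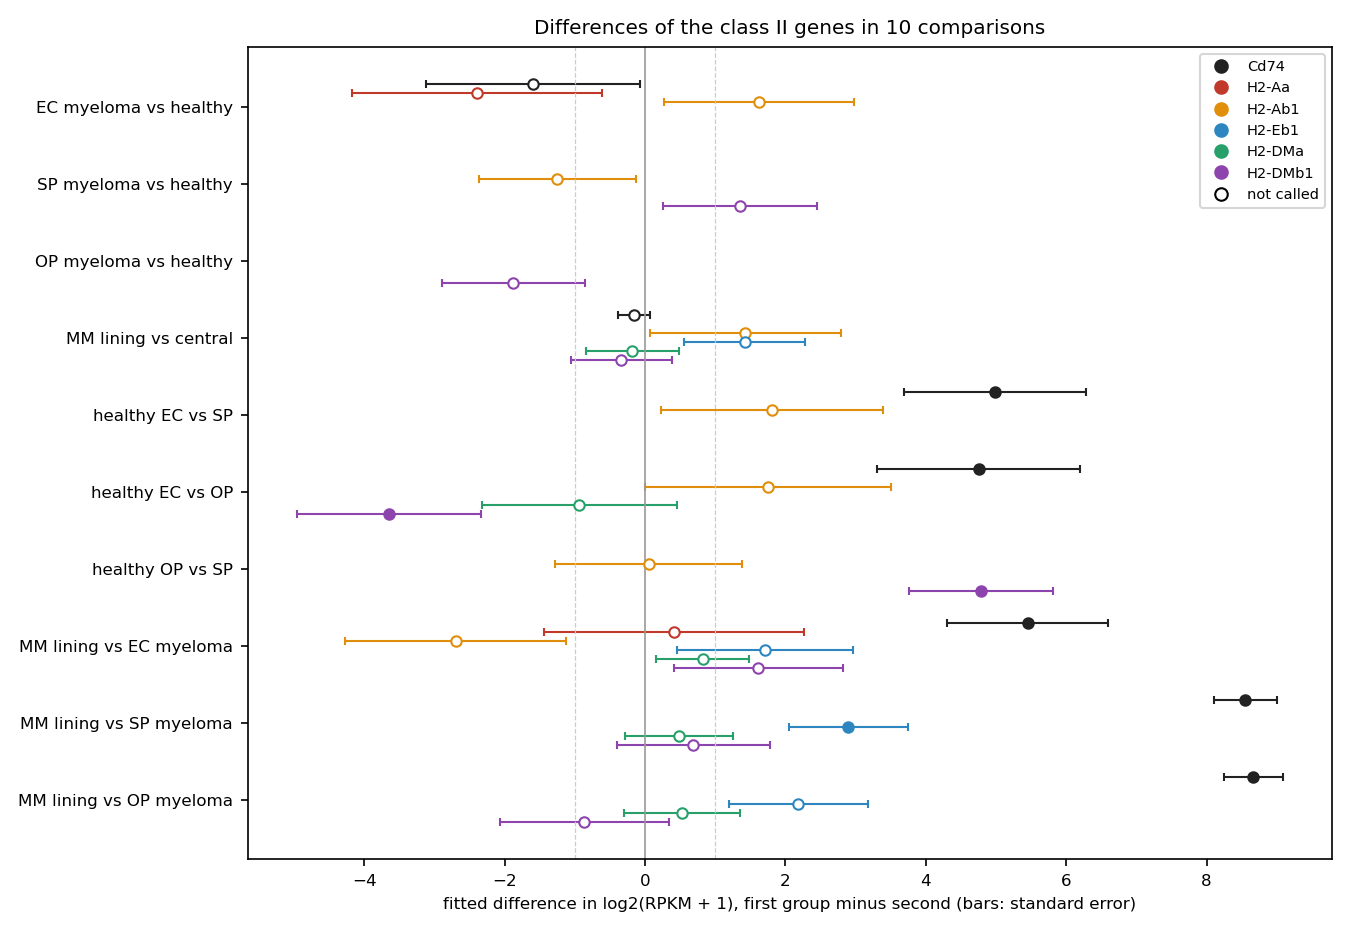
Fitted difference in log2(RPKM + 1), the group named first minus the second, for each tested member in 10 comparisons, with bars for the standard error, filled points for calls and dashed lines at 1 and -1. Open points fill the rows of healthy against myeloma and of lining against central, and Cd74 lies highest, at 8.67, in MM lining against OP.

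Lining libraries E and G also held genes of mononuclear phagocytes. The phagocyte list, of which 10 of 15 genes had a row, had a summed level of 172 to 1255 RPKM in MM lining and 410 to 640 RPKM in MM central, with 2 to 7 and 2 to 4 genes above 1 RPKM. The sum takes in Cd68, the only gene of the list called higher in MM lining than in EC, SP and OP. It was higher by 5.66, 6.61 and 4.77, in every alternative. Lower were 3 of 5, 1 of 6 and 2 of 4 tested. Of all genes, 24.4%, 23.5% and 24.5% were higher and 17.1%, 18.8% and 18.4% lower. Emr1, which encodes F4/80, was 6.75 RPKM in E and 2.22 RPKM in G and did not reach 1 RPKM in any other MM library. Tyrobp, an immune receptor adaptor, was 44.3 and 25.7 RPKM in E and G, and Fcer1g 308 and 52.1 RPKM. Lyz2, the myeloid lysozyme, was 67.9 RPKM in G but 0.536 in E, and C1qb 42.2 RPKM in G but 0 in E, while Csf1r was at most 0.729 RPKM in MM.

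Phagocyte genes and I-A chains did not always appear together. MM lining D had Tyrobp at 20.9, Fcer1g at 17.8 and Lyz2 at 35.5 RPKM, with H2-Aa at 0 and H2-Ab1 at 0.0683 RPKM. SP myeloma E had Tyrobp at 287, Lyz2 at 211 and Csf1r at 7.17 RPKM with no class II gene above 1 RPKM. In lining I and J, where Tyrobp, Emr1, Lyz2 and C1qb were all 0, Cd74 was 542 and 543 RPKM, within the range of the other MM libraries. The summed phagocyte list, which includes Cd68, was 172 RPKM in lining I and 691 RPKM in J. The part of phagocytes in the H2-Aa and H2-Ab1 signal of E and G was not tested.

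**Figure D4:**
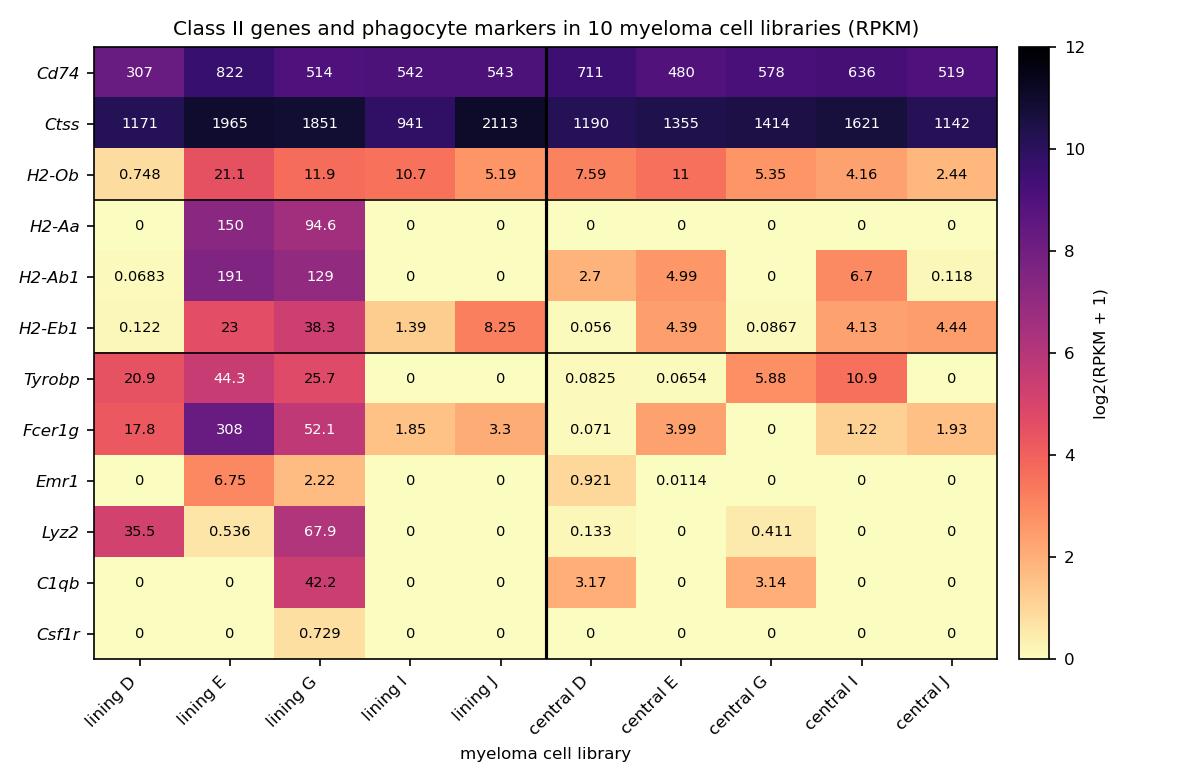
RPKM, printed in each cell and coloured as log2(RPKM + 1), of Cd74, Ctss, H2-Ob, the classical chains and 6 phagocyte markers (rows) in the 10 myeloma cell libraries (columns, lining on the left and central on the right). H2-Aa is above 0 only in lining E and G, where Emr1 also exceeds 1 RPKM.

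In EC, some markers of other class II-positive cells were at or near 0 and others were not. Over the 10 EC libraries Tyrobp did not exceed 0.146 RPKM, Emr1 0.0171, Csf1r 0.118 and Cd79b, the B cell receptor beta chain, 0.256. Of the B cell list, with 3 of 10 genes measured, Ebf1, a transcription factor known also from stromal cells, was above 1 RPKM in 8 EC libraries with up to 40.5 RPKM, and it was 0.362 and 0.202 RPKM in healthy M and O. The summed phagocyte list was nonetheless 337 to 2361 RPKM in healthy and 708 to 1328 RPKM in myeloma EC, with 4 to 5 of 10 genes above 1 RPKM in each library. Of the dendritic cell list, with 5 of 10 genes measured, Flt3 did not exceed 0.0293 RPKM and Siglech was 0, while Zbtb46, known also from endothelium, was above 1 RPKM in 4 EC libraries with up to 9.14 RPKM. Irf8 was 15.7 and 37.9 RPKM in healthy L and O, 29.9, 7.82, 6.37 and 24.2 RPKM in myeloma D, G, I and J, and at most 0.286 in the other 4. The summed dendritic cell list ran from 0.116 to 43.8 RPKM in healthy and from 0.0197 to 40.5 RPKM in myeloma EC, highest in healthy O, the library with all 6 class II genes, whereas healthy M and N, with H2-Aa at 100 and 211 RPKM, had 0.178 and 0.116. The part of other cells in the class II signal of EC was not tested.

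The OP gate left out CD45+ cells, and OP libraries held reads of genes on the phagocyte and dendritic cell lists. The summed phagocyte list was 52.5 to 170 RPKM in healthy and 32.8 to 286 RPKM in myeloma OP. Of its genes, Lyz2, Emr1, C1qb and Tyrobp were 0 in all healthy OP libraries. Fcer1g was higher in healthy OP than in SP by 3.97 (limma adjusted p = 0.0538), a call that 7 of 13 alternatives kept. Of 4 tested it alone was called, where 1.69% of all genes were higher. Batf3, a transcription factor, was 86.4, 32.6, 7.89 and 20.3 RPKM in healthy L, M, N and O, against 0, 4.81, 0 and 7.90 RPKM in myeloma D, G, I and J. Irf8, another transcription factor, was 9.97 RPKM in healthy L, 1.13 in myeloma G and 6.12 in myeloma J, and 0 in the other 5 OP libraries. The healthy library with the highest H2-DMb1, L, also had the highest Batf3, and the myeloma library with H2-DMb1 at 0, D, had none, but myeloma I had H2-DMb1 at 29.9 RPKM with Batf3 at 0. Flt3 was at most 0.506 RPKM, Siglech 0.0262 and Zbtb46 0.391 in OP. The part of other cells in H2-DMb1 of OP was not tested.

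Of the remaining class II chains and exchange factors, 1 of 6 genes had a row. H2-Ob, the beta chain of H2-O, which restrains H2-DM, was 0.748, 21.1, 11.9, 10.7 and 5.19 RPKM in MM lining D, E, G, I and J and 7.59, 11.0, 5.35, 4.16 and 2.44 RPKM in MM central. Elsewhere only EC healthy O, at 12.3 RPKM, and EC myeloma G, at 16.1 RPKM, passed 1 RPKM, and the 18 SP and OP libraries had at most 0.0293 RPKM. Lining libraries alone carried H2-Ob past the filter against SP and OP. Without the filter its differences from them, 3.03 and 3.02, had limma adjusted p of 0.00605 and 0.0112, and its difference from EC, 2.21, lost its call (0.144, against 0.0818 with the filter).

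The proteases and the reductase that prepare the groove and its peptides differed by cell type. Cathepsin S (Ctss), which makes the last cut of Cd74 in professional antigen-presenting cells, was 941 to 2113 RPKM in the 10 MM libraries. Its mean was 68 ± 151 RPKM in healthy EC (SD, n = 5), of which M had 338 RPKM, and it was at most 24.6 RPKM in SP and OP. Cathepsin L (Ctsl), which takes that step in other cells, ran the other way, at 88.8 ± 15.3 RPKM in MM lining (SD, n = 5) and 979 ± 353 RPKM in myeloma EC (SD, n = 5).

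All 9 genes of this list were tested in MM lining against EC, and 3 were higher (24.4% of all genes were) and 3 lower (17.1%). The higher ones were Ctss by 8.05 (SE 0.99, adjusted p = 4.19e-05), the thiol reductase Ifi30 by 6.24 (SE 0.92, adjusted p = 0.000185) and cathepsin Z (Ctsz) by 3.38 (SE 0.41, adjusted p = 3.60e-05). Ctsl, Ctsb and Ctsh were lower, with differences of -3.37, -2.04 and -3.94. Against SP and against OP the same 6 were called in the same directions, where 23.5% and 24.5% of all genes were higher and 18.8% and 18.4% lower, and the legumain Lgmn was also higher, by 1.396 and 1.11. The Lgmn calls held in 7 of 15 alternatives against SP, where the call was lost without the filter (limma adjusted p = 0.115), and in 8 of 14 against OP. The median difference of the list was -0.47 against EC, beside 0.49 for all genes.

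Among healthy libraries, 2 of 8 tested loading genes were higher in EC than in SP (Lgmn by 2.77 and Ctsl by 1.04, with 6.69% of all genes higher) and 2 were lower (Ctsh by 5.04, difference -5.04, and Ifi30, difference -3.65, with 10.6% lower). Against OP the same 4 genes were called in the same directions of 8 tested, with 6.67% of all genes higher and 9.81% lower. None of these calls against OP stood in every alternative: of 13, Ctsh kept its call in 11, Ctsl in 9, Lgmn in 8 and Ifi30 in 5. Against SP, of 14, Lgmn and Ctsh kept theirs in 14, Ifi30 in 13 and Ctsl in 6. EC, which had the highest Cd74 of the niche cells, had the least Ifi30, at 14.2 ± 24.3 RPKM (SD, n = 5) against 78.3 ± 50.5 in healthy SP and 66.1 ± 41.2 RPKM in healthy OP.

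Of the interferon gamma route to Ciita, Ifngr1 and Jak1 were lower in MM lining than in each niche cell type in every alternative. Irf1 was lower too, but its call against SP was lost without the MM and SP libraries lettered E (limma adjusted p = 0.115) and without the libraries with Emr1 above 1 RPKM (0.2502). Of 7 list genes 6 were tested against EC, and 0 were higher and 3 lower (24.4% and 17.1% of all genes): the receptor chain Ifngr1 (difference -3.20, adjusted p = 0.00196), the kinase Jak1 (-5.20, adjusted p = 2.01e-05) and the transcription factor Irf1 (-2.29, adjusted p = 0.00894). Jak1 was 2.399 ± 1.55 RPKM in MM lining and 124 ± 59.1 RPKM in myeloma EC (SD, n = 5 each). Against SP 1 of 7 was higher (Irf2, by 2.01) and 4 lower, and against OP 0 of 7 were higher and 4 lower, where 23.5% and 24.5% of all genes were higher and 18.8% and 18.4% lower, with Ifngr1, Jak1, Irf1 and the feedback inhibitor Socs1 lower in both. In healthy EC, Jak1 was higher than in SP by 1.82 and than in OP by 2.09, and Irf1 was higher than in SP by 2.05.

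The factors known to bind X boxes, Y boxes and cyclic AMP response elements, the Rfx complex, NF-Y and Creb1, had low levels, with means over 38 libraries from 1.86 RPKM for Nfya to 21.4 RPKM for Nfyb. Of 7 tested in MM lining, 1 was higher than in EC (Nfyc, by 1.51, limma adjusted p = 0.0570) and 1 lower (Creb1, difference -1.74, adjusted p = 0.0568), calls that 8 and 7 of 14 alternatives kept, 2 were higher than in SP (Nfya by 1.58 and Rfxank by 1.92) and 1 higher than in OP (Nfya by 1.57). These counts lie below the shares of all genes called, 41.5% against EC, 42.4% against SP and 42.9% against OP. None of the 7 was called between healthy cell types. Of the ligases that remove class II from the surface, March8 was lower in MM lining than in EC (difference -1.92, adjusted p = 0.0186), and March1, with a mean of 0.298 RPKM over all libraries, was not tested.

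Co-stimulatory and co-inhibitory genes had 5 of 9 rows. Cd274, which encodes PD-L1, was 37.0 ± 11.8 RPKM in MM lining and 14.8 ± 2.91 RPKM in MM central (SD, n = 5 each). The difference by location, 1.23 (SE 0.30, limma adjusted p = 0.199), was not called, and 1 of 14 alternatives called it, the one without libraries with Emr1 above 1 RPKM, chosen after seeing the data (adjusted p over the 14 from 0.0836 to 1.00). Cd274 was higher in MM lining than in EC by 3.03 (SE 1.06, adjusted p = 0.0420), than in SP by 4.88 and than in OP by 5.09. The call against EC held in 9 of 14 alternatives. No OP library was above 1 RPKM, so Cd274 entered that comparison through MM lining alone, and without the filter it was called there as well (adjusted p = 1.07e-05). Cd40 was lower in MM lining than in EC (difference -2.94, adjusted p = 0.0199). Tnfsf9, the ligand of 4-1BB, was lower than in SP (-3.21, adjusted p = 0.0730, or 0.136 without the filter) and than in OP (-4.34, adjusted p = 0.00901). Of the 58 calls over these lists, 33 stood in every alternative that tested the gene, 53 stood without the filter and 0 changed sign. No gene of these lists was called by limma between myeloma and healthy libraries of EC, SP or OP.

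**Figure D5:**
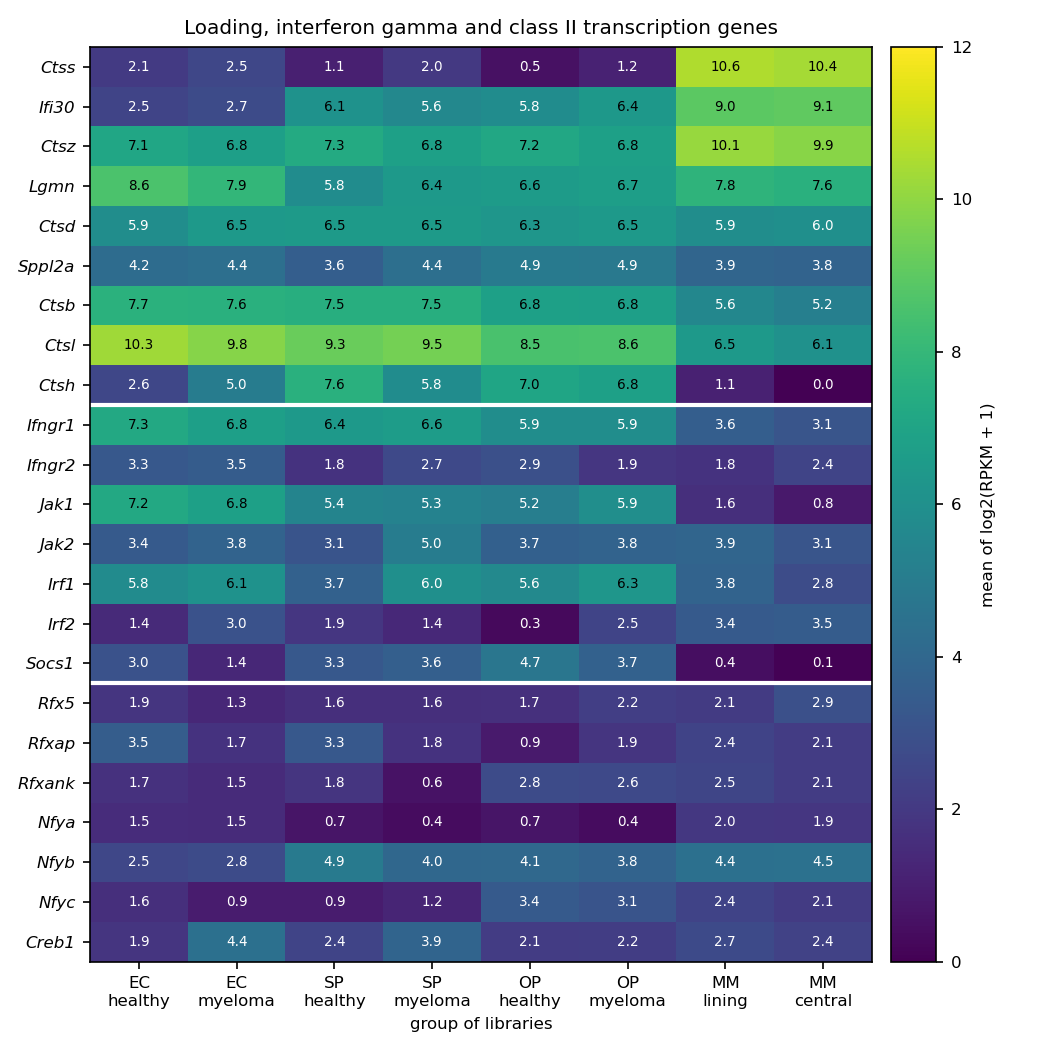
Mean log2(RPKM + 1) per group, printed and coloured, of the loading genes, the interferon gamma route and the class II transcription factors (3 blocks of rows) in the 8 groups of libraries (columns). Ctss, Ifi30 and Ctsz are highest in the MM columns, and Ifngr1, Jak1 and Socs1 lowest there.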

How the data were processed

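Sequencing was performed by the authors on 50-base single-end reads, aligned with STAR 2.4.0 to GRCm38 (UCSC transcripts). Reads were counted with featureCounts (Subread 1.4.5-p1) at its default settings. The paper states nothing on strand use in counting beyond these defaults. The deposited values are RPKM made by the authors with edgeR, for genes above 1 CPM in at least 4 samples. RPKM values were whole multiples of 1 read for all 13260 genes (100%, within a tolerance of 1e-05), which gave reads and depth for each library. Samples were grouped by GEO's labels. Values were tested as log2(RPKM + 1) with limma 3.58.1 in R 4.3.3 (trended empirical Bayes) on the compared groups, for genes above 1 RPKM in at least 4 libraries, and called at an adjusted p below 0.1 and a log2 difference beyond 1. Voom-limma on the recovered reads, scaled by the trimmed mean of M values, was an alternative, as were another pseudocount, no filter, no variance trend, quantile scaling, all libraries in 1 fit, the replicate letter as a block, and each replicate left out. The fits were tested on simulated data. Fold changes on this scale understate those of genes near 0, and the p-values measure the spread between libraries.

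Members, lists and tests were chosen with earlier results of these data known. Named were the members, the genes of 6 pathway lists that were called or had the highest mean RPKM, and the 10 genes most similar to the members. Marker lists covered endothelial, stromal progenitor, osteoprogenitor, plasma and myeloma, phagocyte, dendritic, B, neutrophil and erythroid cells. Genes without a row were not analysed here, and 1 gene of the pathway lists is not reported here.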

Additional observations from a re-analysis of the deposited data

Results flagged for a closer look

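In groups of 4 or 5 libraries, 1 library stood far from the others on the log2(RPKM + 1) scale (Dixon's 95% criterion) in 14 of 46 combinations of gene and group. Chance flags about 1 in 20 groups, and 9 of the 14 extreme values were above 1 RPKM. That rate assumes a normal spread, whereas many values here were at 0, and in 3 of the 14 all other libraries of the group were at 0, so that any read would have met the criterion. In EC myeloma, H2-Eb1 was 49.9 RPKM in library I, H2-DMb1 was 53.3 RPKM in D, and H2-DMa was 4.53 RPKM in J, so that each of these genes was high in a different EC library.

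In SP myeloma, library G was extreme for H2-Ab1 at 19.1 RPKM, for H2-DMa at 11.2 RPKM and, with 1 read, for H2-Eb1 at 0.0358 RPKM, and library I for H2-Aa at 0.300 RPKM. In SP healthy, library C was extreme for H2-DMb1 at 19.2 RPKM and, with 1 read, for H2-Eb1 at 0.0304 RPKM, and library N for H2-Aa at 0.129 RPKM. OP healthy M stood apart for Cd74 at 1.62 RPKM. Among OP myeloma libraries H2-Eb1 was 3.52 RPKM in J, H2-DMa was 10.1 RPKM in G, and H2-DMb1 was 0 RPKM in D, where the other 3 had 28.1 RPKM or more.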

How the results depend on the processing

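Over all alternatives, including those chosen after seeing the data, 0 members were called between myeloma and healthy EC, SP or OP, between MM lining and central, or between changes, although up to 2 had an unadjusted p under 0.05. The Cd74 calls for MM lining against EC (4.54 to 7.16), SP (8.24 to 11.0) and OP (8.20 to 11.8) held in all 14, 14 and 13 alternatives that tested it. Over single members, 646 values kept direction and call, 16 lost a call, 5 gained one and 22 changed sign.

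Leaving out a replicate removed its letter from every compared group. The number of members called in healthy EC against SP was 1, and became 2 with all libraries in 1 fit, 3 with voom-limma in 1 fit, and 0 to 1 with a replicate left out, 0 where Cd74 fell below the filter without C, M, N or O. In healthy EC against OP it was 2, and became 1 with a pseudocount of 0.1, without a variance trend or with voom-limma, 3 with all libraries in 1 fit and with voom-limma in 1 fit, 0 without a filter, and 0 to 1 with a replicate left out (0 without M or N). In healthy OP against SP it was 1, and 0 to 1 with a replicate left out. For MM lining it rose from 1 to 2 against EC with voom-limma in either form, ranged from 1 to 2 against SP (1 without E, G, I or J) and against OP (2 without D, when H2-Eb1 was called) with a replicate left out. Without the 3 libraries with Emr1 above 1 RPKM it was 2 against EC, 0 against SP and 0 against OP. The 3 lining libraries left could not pass a filter of 4, and since E and G were the only lining libraries with H2-Ab1 above 1 RPKM, the added H2-Ab1 call against EC follows from leaving them out.

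Signs changed for members that were not called. In MM lining against central, Cd74 ranged from -0.39 to 0.11 (without D) with a replicate left out, H2-DMa from -0.93 to 0.55 (without I, 0.19 without E), and H2-DMb1 from -0.73 to 0.063 (without I, and above 0 without D). H2-DMa became 0.044 with quantile scaling. H2-Ab1 ranged from -0.088 (without O) to 3.12 in healthy EC against OP and from -0.43 (without C) to 0.95 in healthy OP against SP, where it became -0.32 with a pseudocount of 0.1, -0.50 with voom-limma in either form and -0.41 without the libraries high in S100a8 (SP healthy L). In MM lining, H2-Aa against EC became -0.14 and -0.15 with voom-limma (alone and in 1 fit), H2-DMb1 against SP ranged from -0.058 (without E) to 1.06 and was -0.75 without libraries with Emr1 above 1 RPKM, and H2-DMb1 against OP ranged from -1.92 to 0.25 (without I). Between changes, H2-DMa in EC against OP ranged from -0.37 (without L, -0.12 without J) to 1.88, H2-DMb1 in EC against OP from -1.20 (without D) to 2.24, and H2-Ab1 in SP against OP from -0.24 (without N) to 1.78. The cause was not tested.

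The labels do not tie letters to mice, and letters were not taken to pair the libraries in the main fits. Over 32 pairs of the same letter in 7 comparisons, the correlation of deviations was -0.0488 to 0.145, with 3 above 0.1. In 15 of the 32 a library correlated best with its own letter, and in 0 of 7 comparisons did every library. With 4 or 5 candidates each, chance would give 1 match in 4 or 5, so own letters matched more often than that. These values do not settle whether a letter is a mouse. With the replicate block, 1 member was called in healthy EC against OP and 2 in MM lining against EC (H2-Ab1 at -2.70, limma adjusted p = 0.0924), H2-Ab1 in healthy OP against SP became -0.43, and other counts of calls did not change. No paired analysis was possible because healthy and myeloma libraries share no letters in the comparisons of myeloma with healthy cells.

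Over all genes, myeloma against healthy EC gave 0 calls in the groups' own fit, 3 with voom-limma, 150 with all libraries in 1 fit and 263 with voom-limma in 1 fit. Libraries of 100 cells and 4 or 5 replicates limit these comparisons: pairs of healthy EC libraries correlated at 0.572 to 0.696 over genes, pairs of MM central libraries at 0.938 to 0.947. Genes under 3 reads cannot be ordered.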

Other observations

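The genes whose pattern was most like the mean log2(RPKM + 1) of the 6 members over 38 libraries, among 12677 genes, were Dynlt1a (Pearson r = 0.75), Kbtbd8 (0.74), Gca (0.72), Psmb9 (0.69), H2-Ob (0.69), Rpl34-ps1 (0.68), Psmb8 (0.68), BC064078 (0.68), A730090N16Rik (0.66) and Eif2b1 (0.66). Psmb8 and Psmb9 encode immunoproteasome subunits and, like H2-Ob, lie in the MHC. After the mean of each group was taken away, the closest genes were Rpl5 (0.71), Gca (0.70), Kbtbd8 (0.69), Blvrb (0.69), Adamtsl1 (0.68), Oit3 (0.64), A730090N16Rik (0.64), Zbtb37 (0.62), Dynlt1a (0.61) and Slbp (0.61), and neither Psmb gene nor H2-Ob was among them. Libraries in these correlations share cell type and depth, and the values are a description, with no test.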
